A study of Homo sapiens with 8 samples.

Results

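The immunoglobulin and T-cell receptor loci are the 6 stretches of the genome that encode the antigen receptors of B and T cells. They were taken by position in build hg19, and their members are the H3K27me3 islands that overlap them by at least 1 bp. By this rule 100 of 58144 islands of LY19WT and 106 of 47432 islands of LY19Y646F were members, 206 of 105576 in all. The immunoglobulin loci were IGH on chromosome 14 (106030001 to 107290000), IGK on chromosome 2 (89150001 to 90280000) and IGL on chromosome 22 (22380001 to 23270000). The T-cell receptor loci were TRA/TRD on chromosome 14 (22090001 to 23030000), TRB on chromosome 7 (141990001 to 142520000) and TRG on chromosome 7 (38270001 to 38410000). The positions did not use the measured values, and a locus without an island was counted as a result.

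Both lines are immortalized lymphoma B cells that were grown without treatment. LY19WT carries wild-type EZH2, and LY19Y646F constitutively expresses the EZH2-Y646F mutant from a CMV promoter. For each line 3 H3K27me3 ChIP-seq libraries and 1 input library were made, and the ChIP libraries of a line were merged before islands were called against its input. Each value below is therefore 1 value per line with no spread between replicates, so the lines were compared without a test. Whether LY19Y646F is a single clone was not given in the sources used here. The labels give B cells as the cell type. No measure of transcription was used here, so that label was not checked against expressed markers.

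H3K27me3 is a repressive histone mark that EZH2 writes as the catalytic subunit of Polycomb repressive complex 2. The receptor loci hold families of V, D and J gene segments that the RAG recombinase joins into 1 exon, which deletes or inverts the DNA between them. B cells rearrange the immunoglobulin heavy chain locus IGH and the light chain loci IGK and IGL, and transcribe the joined genes. T cells rearrange TRA, TRB, TRG and TRD, the last of which is nested inside TRA, and B cells normally leave these loci silent.

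H3K27me3 filled the T-cell receptor loci TRA/TRD and TRB of LY19WT. Among the immunoglobulin loci of that line, IGH (1.37% covered) and IGL (8%) were sparse, and IGK (27.1%) was not. Together the 3 T-cell receptor loci, 1610 kb, were covered by islands to 72.8% in LY19WT and 19.6% in LY19Y646F. The 3 immunoglobulin loci, 3280 kb, were covered to 12.04% and 13.5%. All autosomal islands covered 19.8% of the autosomal span in LY19WT and 13.7% in LY19Y646F. The 2 lists of loci thus differed in LY19WT by far more than in LY19Y646F, and the loci within each list were not alike.

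**Figure D1:**
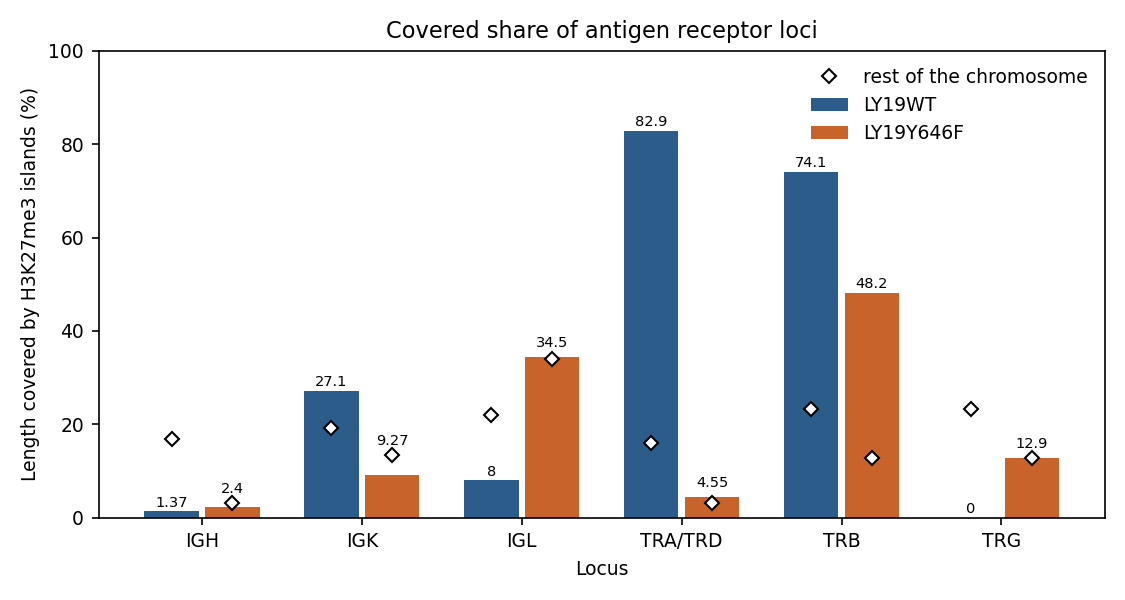
Share of each locus covered by H3K27me3 islands (%, bars, 1 merged list per line) for LY19WT (blue) and LY19Y646F (orange), with the share of the rest of the same chromosome as diamonds. TRA/TRD (82.9%) and TRB (74.1%) of LY19WT stand far above their chromosomes, and TRG of that line has no bar because no island lies there.

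In windows of 50 kb the same contrast appeared. An island was present in 28 of the 32 windows of the T-cell receptor loci in LY19WT and in 15 in LY19Y646F, against 43% and 36.5% of all 55861 autosomal windows. Windows covered by at least 50% numbered 24 of 32 in LY19WT and 5 in LY19Y646F, against 18.9% and 11.4% of all windows. In 18 of the 32 windows the LY19WT coverage exceeded that of LY19Y646F by 50 points or more, as it did in 10.4% of all windows, and 17 of the 18 lay in TRA/TRD.

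The windows of the immunoglobulin loci lay nearer the background. An island was present in 23 of 65 in LY19WT (35.4%, against 43% of all windows) and in 25 in LY19Y646F (38.5%, against 36.5%). Coverage of at least 50% was found in 6 of them in LY19WT (9.23%, against 18.9%) and 9 in LY19Y646F (13.8%, against 11.4%). The 6 all lay in IGK. Of the 9, 8 lay in IGL and 1 in IGK. A difference of 50 points or more favoured LY19WT in 4 windows, all in IGK, and LY19Y646F in 6, all in IGL, against 10.4% and 3.57% of all windows. No island of either line was present in 33 of the 65 windows, against 45% of all windows and 2 of 32 in the T-cell receptor loci. Of these 33, 19 belonged to IGH, which has 25 windows. Windows of 1 locus are neighbours and not independent.

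TRA/TRD, which encodes the alpha and delta chains, was the locus with the largest difference between the lines. Islands covered 82.9% of it in LY19WT and 4.55% in LY19Y646F, a difference of -78.34 percentage points. In LY19WT, 30 islands had a median width of 15.1 kb, against 5.8 kb in the whole list, and 5 of them were wider than 50 kb. The widest ran from 22669401 to 22795800 (126.4 kb, 11003 ChIP and 1080 input reads) and ranked 69 by width among all LY19WT islands. The next ran from 22474601 to 22599600 (125 kb, 12998 ChIP and 1034 input reads) and ranked 72. The third, from 22400801 to 22470600, measured 69.8 kb. These broad islands lay in the middle of the locus. The highest authors' fold, 5.07, belonged to a narrow island of 1.8 kb, from 22383801 to 22385600, with 109 ChIP and 7 input reads. Input density was highest from 22827001 to 22835200, at 1.15 times the autosomal median.

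In the RefSeq gene order the V segments of TRA/TRD fill the lower-coordinate side, from TRAV1-1 on. The TRD D, J and C genes follow, then the TRA J segments and, at the upper edge, TRAC, which encodes the constant part of the alpha chain. LY19WT islands began at the lower edge, where 1 island crossed into the locus, and ended at 22964800. The last 65.2 kb, the side of TRAC, held none. The next LY19WT island outside lay 30.2 kb above the locus, on the side of DAD1, a subunit of the oligosaccharyltransferase complex and the nearest protein-coding gene in that order.

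LY19Y646F had 8 islands in TRA/TRD, from 3.2 to 8.6 kb wide. Of these, 5 lay in the first 99.4 kb of the locus and 3 between 614.8 and 650.2 kb from its lower edge. The 515.4 kb between these groups and the last 289.8 kb of the locus had none. With 82.9% of the locus covered in LY19WT, overlap with its islands was likely at most places, and nothing is read from it. All 8 LY19Y646F islands lay entirely within LY19WT islands, so 100% of the LY19Y646F length was shared, as was 5.49% of the LY19WT length. The highest authors' fold among them, 2.44, belonged to the widest, from 22704801 to 22713400, with 333 ChIP and 52 input reads. In LY19WT this place lay inside the 126.4 kb island. The next widest ran from 22733401 to 22740200 (6.8 kb, 274 and 56 reads, fold 1.87) and from 22153801 to 22159800 (6 kb, 197 and 43 reads, fold 1.75). Input density was highest from 22185801 to 22189400, at 1.12 times the autosomal median. Outside the locus the nearest LY19Y646F islands lay 16.6 kb below and 65.0 kb above.

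The surroundings of TRA/TRD were also sparse in LY19Y646F. The 1 Mb below and the 1 Mb above the locus were covered to 37.6% and 34.4% in LY19WT and to 8.70% and 10.8% in LY19Y646F. The rest of chromosome 14 was covered to 15.9% and 3.23%. In LY19WT the locus stood above its flanks and its chromosome, and in LY19Y646F it stood below both flanks and close to its chromosome. Input density, which follows the number of DNA copies as well as mappability, was 0.979 times the autosomal median in LY19WT (95% exact Poisson interval 0.956 to 1.00). In LY19Y646F it was 0.871 (0.777 to 0.973) over the locus, 0.867 and 0.811 over the flanks and 0.792 over the rest of the chromosome. The part of lower input in the low coverage was not tested.

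TRB, which encodes the beta chain, was broadly covered in both lines. The covered share was 74.1% in LY19WT and 48.2% in LY19Y646F, a difference of -25.92 points. LY19WT had 16 islands with a median width of 20.5 kb, and LY19Y646F had 36 with a median of 6.0 kb, so LY19WT had fewer and wider islands over more of the locus. The widest LY19WT islands ran from 142148801 to 142217800 (69 kb, 5953 ChIP and 644 input reads), from 142426601 to 142489200 (62.6 kb) and from 142326201 to 142381000 (54.8 kb). In LY19Y646F the widest ran from 142452401 to 142476000 (23.6 kb, 1395 ChIP and 235 input reads), from 142098601 to 142118400 (19.8 kb) and from 142398801 to 142413200 (14.4 kb).

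In each line the single highest authors' fold in TRB belonged to a narrow island, though other narrow islands had low folds. In LY19WT the highest was 5.40, from 142243001 to 142245200 (166 ChIP and 10 input reads), and in LY19Y646F it was 2.97, from 142250601 to 142254600 (148 and 19 reads). These 2 islands lay close to each other. Input density was highest from 142029401 to 142048200 in LY19WT, at 1.16 times the autosomal median, where ChIP density was 116.6 reads per kb. In LY19Y646F it was highest from 142135801 to 142138000, at 1.51 times with 28 reads.

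Of the LY19Y646F length in TRB, 95.5% lay inside LY19WT islands, and 62.0% of the LY19WT length lay inside LY19Y646F islands. Over all autosomes these shares were 48.1% and 33.3%. All 36 LY19Y646F islands touched a LY19WT island. LY19WT covered 74.1% of TRB against 19.8% of the autosomal span. Most LY19Y646F length in TRB would thus fall inside LY19WT islands in any case, and nothing is read from the higher shares. In LY19Y646F the locus stood above both flanks, which were covered to 11.7% and 23.9%, and above the rest of chromosome 7, at 12.8%. Of the other loci only IGL stood above both of its flanks in that line. In LY19WT the flanks were covered to 47.5% and 51.0% and the rest of the chromosome to 23.2%. Input density over the locus was 1.04 times the autosomal median in LY19WT and 1.05 in LY19Y646F.

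Only 2 stretches of at least 40 kb in TRB were empty in both lines. No island of either line lay from 142048201 to 142098400 (50.2 kb) or from 142276201 to 142326200 (50 kb), and outside these stretches coverage was 91.3% in LY19WT and 59.4% in LY19Y646F. The hg19 assembly is known to hold unsequenced gaps in TRB and IGK, and whether these stretches are such gaps was not tested, since no sequence of that build was used here. The stretches were picked after the islands were seen. The D, J and C genes of TRB lie near the upper edge, after PRSS1 and PRSS2, which encode the digestive enzyme trypsinogen. A LY19WT island of 42 kb crossed that edge, as did a LY19Y646F island of 4 kb. At the lower edge a LY19WT island of 24.8 kb crossed into the locus. The nearest islands wholly outside TRB lay 16.2 kb below it in LY19WT and 43.0 kb below it in LY19Y646F, and 16.2 and 3.0 kb above it.

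TRG, which encodes the gamma chain, was the only locus without an island in LY19WT. It measures 140 kb. LY19Y646F had 3 islands there, which covered 12.9%. With the edges moved out by 50 kb the shares were 3.75% in LY19WT and 8.67% in LY19Y646F, and at an FDR of at most 1e-10 they were 0% and 7.29%. They ran from 38299001 to 38304800 with 264 ChIP and 51 input reads (authors' fold 1.98), from 38318201 to 38322600 with 173 and 34 reads (1.94), and from 38340801 to 38348600 with 285 and 75 reads (1.45). All 3 lay between 29.0 and 78.6 kb from the lower edge. The constant genes TRGC2 and TRGC1 come first in the gene order, with their J segments, and the V segments follow up to TRGV1.

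The flanks of TRG differed in direction. Above the locus, on the side of AMPH, which encodes the endocytic protein amphiphysin, coverage of the next 1 Mb was 69.7% in LY19WT against 11.2% in LY19Y646F. Below it, on the side of STARD3NL, the values were 9.28% and 14.1%. The nearest LY19WT islands lay 348 kb below and 28.6 kb above the locus, and those of LY19Y646F 490.2 kb below and 19.0 kb above. The island lists give reads only inside islands, so TRG of LY19WT has no density. An empty locus may hold the mark below the level at which islands were listed. Of the islands of LY19WT, 95% had at least 45.6 ChIP reads per kb, and of those of LY19Y646F at least 35.4.

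**Figure D2:**
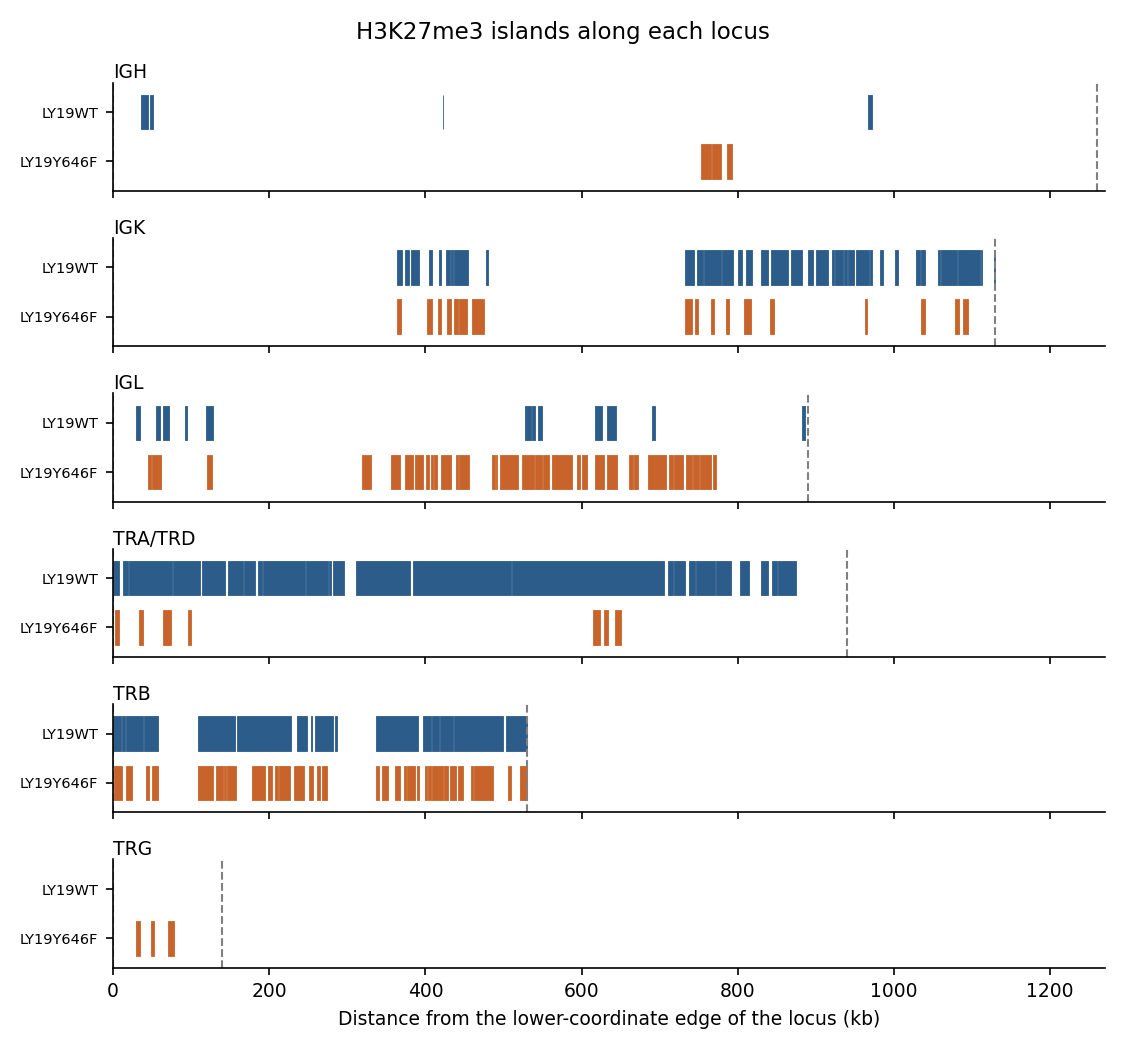
Islands along each locus (kb from the lower-coordinate edge, to scale) for LY19WT (blue) and LY19Y646F (orange); dashed lines mark the upper edge of the locus. TRB is empty in both lines over the same 2 stretches, and 34 of the 37 LY19Y646F islands of IGL lie in a part where LY19WT has 6.

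IGK, the kappa light chain locus, had island coverage of 27.1% in LY19WT against 9.27% in LY19Y646F, a difference of -17.86 points. The rest of chromosome 2 was covered to 19.2% and 13.5%. Both lines shared 2 long empty stretches. None lay in the first 363.2 kb, from 89150001 to 89513200, which is the side of IGKC, the only kappa constant gene, of the 5 J segments and of the first V segments. None lay from 89630201 to 89882200 (252 kb) either. Whether these stretches fall in unsequenced gaps of hg19 was not tested. The V segments of IGK form a proximal copy and a distal, inverted copy of each other. Reads from such near-identical copies can be hard to place, and their treatment by the aligner was not given in the sources used here.

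The LY19WT islands of IGK formed 1 group of 9 from 89513201 to 89630200 and 1 group of 29 from 89882201 to the upper edge, covered to 50.6% and 62.2%. LY19Y646F covered 42.6% and 13.8% of the same stretches, so the lines were nearer each other in the first. The widest LY19WT islands ran from 89906601 to 89929200 (22.6 kb, 1453 ChIP and 163 input reads), from 90210001 to 90231200 (21.2 kb) and from 89586801 to 89604800 (18 kb). The widest of LY19Y646F ran from 89609801 to 89625400 (15.6 kb, 624 ChIP and 138 input reads), from 89957801 to 89967400 (9.6 kb) and from 89883001 to 89891600 (8.6 kb). Of the 18 LY19Y646F islands, 17 touched a LY19WT island, and 72.5% of their length was shared, against 24.8% of the LY19WT length. LY19Y646F alone had a further empty stretch of 116.8 kb, from 89996001 to 90112800, within the second group.

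At the start of the second group of IGK the island with the highest input density in the locus lay at nearly the same place in both lines. In LY19WT it ran from 89882201 to 89894200 at 13.6 input reads per kb, 1.62 times the autosomal median. In LY19Y646F it ran from 89883001 to 89891600 at 17.0 reads per kb, 2.02 times. The authors' folds were 2.23 and 1.56. The highest fold of LY19WT in IGK, 5.89, belonged to the island from 89513201 to 89519800, the first of the locus, where input was 0.414 times the median with 23 reads. In LY19Y646F the highest was 2.30, from 89895801 to 89899600, with 157 ChIP and 26 input reads. The fold has the input count as its denominator and rises where input is low.

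Below IGK the 1 Mb flank, on the side of RPIA, had coverage of 23.8% in LY19WT against 27.3% in LY19Y646F. The 1 Mb above, towards the centromere, was covered to 5.02% and 1.92%. Input density over the islands of this upper flank was 2.12 times the autosomal median in LY19WT and 1.48 times in LY19Y646F. A LY19WT island of 5 kb crossed the upper edge of IGK. The nearest island wholly below the locus lay 19.2 kb away in LY19WT and 308.6 kb away in LY19Y646F. For those wholly above it the gaps were 17.6 and 18.8 kb.

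IGL, the lambda light chain locus, had the largest difference towards more coverage in LY19Y646F among the 6 loci. Islands covered 8% of it in LY19WT and 34.5% in LY19Y646F, a difference of 26.54 points. The rest of chromosome 22 was covered to 22.0% and 33.9%, so the LY19Y646F value stood close to its chromosome and the LY19WT value below it. LY19Y646F had 37 islands and LY19WT had 12. The widest of LY19Y646F ran from 22875401 to 22899000 (23.6 kb, 1078 ChIP and 204 input reads), from 23064801 to 23088200 (23.4 kb, 1161 and 212 reads) and from 22946601 to 22968200 (21.6 kb, 1012 and 182 reads). The widest of LY19WT ran from 23013201 to 23024000 (10.8 kb, 617 ChIP and 45 input reads), from 22498801 to 22507400 (8.6 kb, 673 and 57 reads) and from 22443801 to 22452000 (8.2 kb, 510 and 81 reads).

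Both lines had a few islands in the first 127.4 kb of IGL, at the V end of the locus, and none from 22507401 to 22699200. From 22699201 to 23152600, 34 islands of LY19Y646F covered 62.9% of 453.4 kb. LY19WT islands covered 8.43% of that stretch and were absent from 22507401 to 22908000, 400.6 kb. The lambda J and C genes, IGLC1 to IGLC7, lie at the upper edge. There LY19WT had 1 island of 3.4 kb, from 23262801 to 23266200 (156 ChIP and 23 input reads), and the last 117.4 kb of the locus had none in LY19Y646F. Genes of other families lie among the V segments, among them VPREB1, part of the surrogate light chain of B-cell precursors, and PRAME, a tumour antigen. They were not placed on the islands, because the gene table at hand is on GRCh38.p14.

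Input density of LY19WT was uneven within IGL. Over the 5 islands of the first 127.4 kb it was 1.10 times the autosomal median (0.971 to 1.23). Over the 6 islands from 22908001 to 23073600 it was 0.548 (0.470 to 0.635), or 176 reads over 38.2 kb. In LY19Y646F, 13 islands overlapped the latter stretch at 1.03 times the median (0.966 to 1.09). The pooled fold of LY19WT over it, 3.88, was above the 2.33 of the first part, while ChIP density was lower, at 54.9 against 65.9 reads per kb. The highest authors' fold of LY19WT in IGL, 5.48, fell in the same stretch, from 22908001 to 22915200, with 438 ChIP and 26 input reads. Its highest input density lay in the first part, from 22472201 to 22474800, at 1.46 times the median. In LY19Y646F the highest fold was 2.85, from 23097801 to 23100600 (127 and 17 reads), and input density was highest from 23123201 to 23130600, at 1.40 times. The part of lower input in the fold was not tested. The grouping of islands at gaps of at least 100 kb was chosen after the islands were seen.

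The flanks of IGL differed on the upper side. The 1 Mb above, towards RSPH14, had coverage of 1.40% in LY19WT against 26.8% in LY19Y646F. The 1 Mb below was covered to 18.3% and 27.5%. The nearest LY19WT islands lay 463.8 kb below and 122.2 kb above the locus, and those of LY19Y646F lay 34.4 and 38.8 kb away.

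IGH, the heavy chain locus, was nearly free of islands in both lines. Its coverage was 1.37% in LY19WT against 2.40% in LY19Y646F, with 4 islands each, a difference of 1.03 points. The rest of chromosome 14 was covered to 16.8% and 3.25%. No length was shared between the lines, while over all autosomes 33.3% of what LY19WT covered and 48.1% of what LY19Y646F covered was shared. With so little of IGH covered in either line, little overlap could arise, and nothing is read from its absence. In the RefSeq order the constant genes, from IGHA2 to IGHM, come first, then the J and D segments, and the V segments fill the rest up to the end of the chromosome.

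In LY19WT, 2 IGH islands lay close together on the side of the constant genes, from 106065801 to 106074600 (741 ChIP and 52 input reads, authors' fold 4.64) and from 106077401 to 106080800 (197 and 16 reads, 4.01). Another, from 106996601 to 107001400, had 315 ChIP and 35 input reads and a fold of 2.93. It was the last LY19WT island on chromosome 14. The remaining one was a single window of 0.2 kb, from 106452801 to 106453000, with 35 ChIP reads and 1 input read. Its fold of 11.4 ranked 10 in the whole list, and its counting interval ran from 1.91 to 463.

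The 4 LY19Y646F islands of IGH lay side by side within 40.2 kb on the V side. They ran from 106782801 to 106791600 (341 ChIP and 73 input reads), from 106792401 to 106796400 (169 and 38), from 106797201 to 106808200 (525 and 132) and from 106816601 to 106823000 (250 and 40). Their authors' folds were 1.78, 1.70, 1.52 and 2.39. Together their input density was 1.11 times the autosomal median (0.987 to 1.25), above the 0.790 of the rest of chromosome 14 in this line. The 1 Mb below IGH, on the side of TMEM121, had coverage of 19.7% in LY19WT against 9.24% in LY19Y646F, and the nearest islands below lay 37.6 and 18.0 kb away. No listed island of either line lies beyond the locus on chromosome 14, so the side above was not compared.

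Pooled over the islands of a locus, input density differed between the loci in LY19WT. It was 0.719 times the autosomal median over IGH (0.588 to 0.871), 0.882 over IGK (0.846 to 0.919) and 0.788 over IGL (0.719 to 0.863). The pooled values of all 3 immunoglobulin loci thus lay below the median. That of IGH rests on 104 input reads over 17.2 kb, and within IGL the first 127.4 kb stood at 1.10. The rest of the chromosomes of IGH, IGK and IGL stood at 0.994, 0.990 and 1.05 in that line. Over TRA/TRD and TRB it was 0.979 and 1.04. In LY19Y646F the values were 1.11 over IGH, 1.11 over IGK (1.04 to 1.18) and 1.06 over IGL (1.02 to 1.10). They were 1.05 over TRB and 1.06 over TRG (0.898 to 1.23), and only TRA/TRD, at 0.871, lay below the median. Pooled in the same way, all autosomal islands stood at 1.06 in LY19WT and 1.09 in LY19Y646F. IGL, TRB and TRG of LY19Y646F lay slightly below that 1.09, with IGH and IGK slightly above it. Of single islands, 42 of the 54 of the immunoglobulin loci had input below the autosomal median in LY19WT and 22 of 59 in LY19Y646F. The counts in LY19WT were 18 of 30 in TRA/TRD and 8 of 16 in TRB. In LY19Y646F they were 6 of 8 in TRA/TRD, 16 of 36 in TRB and 1 of 3 in TRG. About 50% of all autosomal islands lie below that median by definition. These intervals cover counting error of 1 input library only, and input was seen only where a ChIP island was listed. The places sampled therefore differ between the lines. The part of copy number in these values was not tested.

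**Figure D3:**
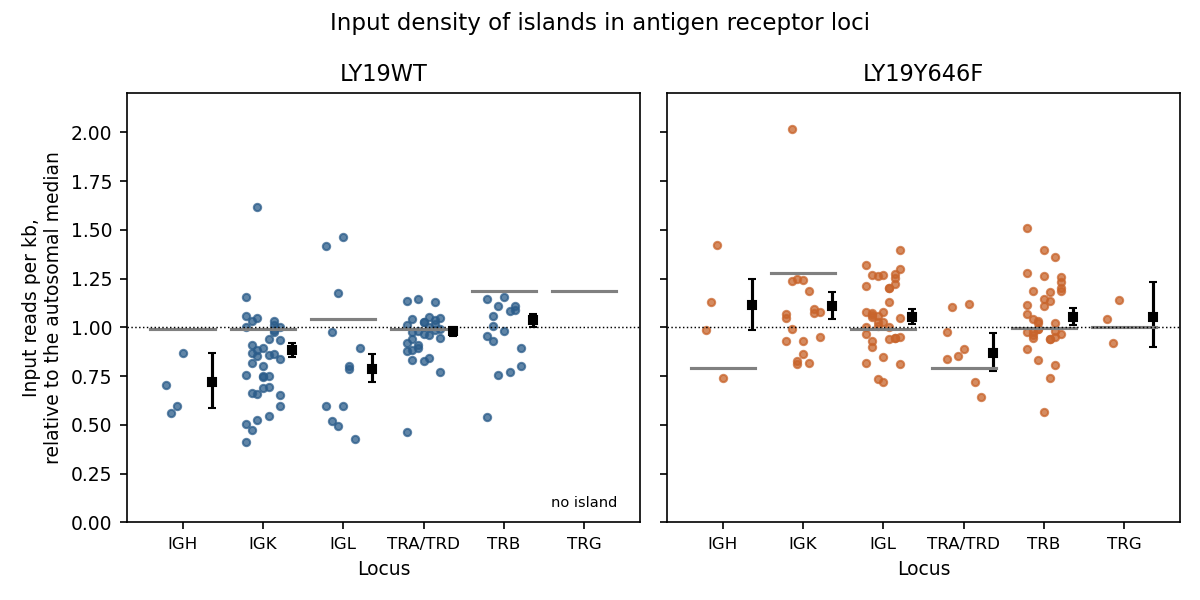
Input reads per kb of each island (points), as a multiple of that line's autosomal median (dotted line at 1), by locus; squares give the pooled value of a locus with its 95% Poisson interval and grey lines the rest of the chromosome. The pooled LY19WT values of IGH, IGK and IGL lie below 1, at 0.719, 0.882 and 0.788, while those of LY19Y646F lie above 1. All autosomal islands pooled, not drawn, stand at 1.06 in LY19WT and 1.09 in LY19Y646F.

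ChIP density, the raw ChIP reads per kb of islands, was highest over the T-cell receptor loci in LY19WT. It was 84.6 reads per kb over TRA/TRD (84.0 to 85.3) and 82.5 over TRB (81.6 to 83.4), against 74.9 over IGH (70.8 to 79.1), 62.7 over IGK, 59.1 over IGL and 67.8 over all autosomal islands. In LY19Y646F it was 36.8 over TRA/TRD (35.03 to 38.7), 43.4 over TRB, 40.1 over TRG (37.2 to 43.1), 42.5 over IGH, 42.3 over IGK and 45.4 over IGL, against 45.2 over all autosomal islands. TRA/TRD thus had the highest value of LY19WT and the lowest of LY19Y646F, where its interval overlapped that of TRG. In LY19Y646F its flanks stood at 37.7 and 39.8 and the rest of chromosome 14 at 39.2, so the low value was not particular to the locus. In LY19WT they stood at 71.8, 79.3 and 64.9. Raw densities are not comparable between the lines, since the merged libraries differ in depth, and are read here within a line.

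Enrichment over input, pooled over the islands of a locus and divided by the library ratio of the list, was lower in LY19Y646F at all 5 loci that had islands in both lines. In LY19WT it was 3.34 over TRA/TRD (95% interval 3.26 to 3.43) and 3.08 over TRB (2.98 to 3.19). It was 4.03 over IGH (3.30 to 4.97), 2.75 over IGK and 2.90 over IGL, against 2.47 over all autosomal islands. In LY19Y646F it was 1.92 (1.70 to 2.17), 1.87, 1.73, 1.73 and 1.95 in the same order, and 1.72 over TRG, against 1.89. The log2 ratio of LY19Y646F to LY19WT was -0.80 over TRA/TRD, -0.72 over TRB, -1.22 over IGH, -0.67 over IGK and -0.57 over IGL, and -0.39 over all autosomal islands. Each line was read over its own islands, so these ratios can set different DNA side by side. At TRA/TRD the islands measured 789 kb in LY19WT and 42.8 kb in LY19Y646F, and at IGH the lines shared no length.

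The sign of these ratios depends on the scaling. When ChIP density was scaled by the total ChIP reads in islands, the ratio over all autosomal islands moved to 0.53 and those over IGH, IGK, IGL and TRB turned positive. Set against all autosomal islands under the same scaling, TRA/TRD differed by -0.42 on the log2 scale with input and library ratio and by -0.62 with either other scaling. Those other scalings give the same difference by construction, since each divides a whole line by a constant, and are a single alternative. TRB differed by -0.34 with input and library ratio and also with the alternative, and IGH by -0.83 and -0.23. IGK went from -0.28 to 0.016 and IGL from -0.19 to 0.20, so no direction holds for the light chain loci. The reference here was all autosomes and not the chromosome of a locus. Chromosome 14 outside TRA/TRD had 64.9 ChIP reads per kb in LY19WT against 67.8 over all autosomal islands, and 39.2 against 45.2 in LY19Y646F. Its enrichment was 2.53 against 2.47 and 2.24 against 1.89. The part of the chromosome in the TRA/TRD and IGH values was not tested.

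**Figure D4:**
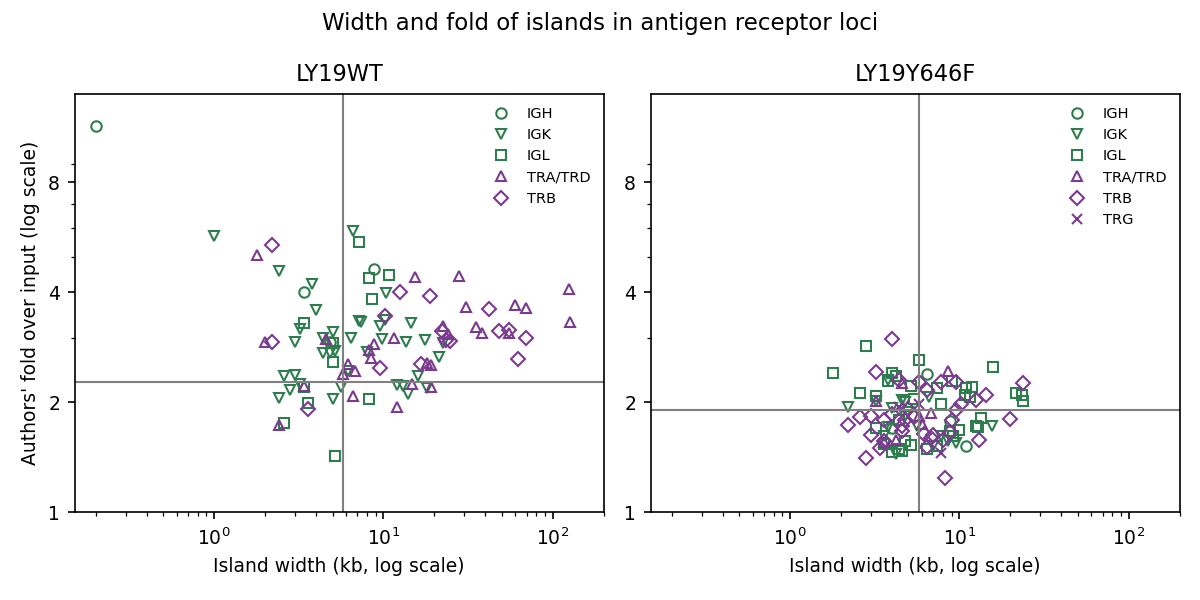
Width (kb, log scale) and authors' fold over input (log scale) of each island in the loci, with the medians of the whole list as grey lines; green symbols are immunoglobulin and purple symbols T-cell receptor loci. The 8 islands wider than 50 kb all belong to TRA/TRD and TRB of LY19WT, and the point at the upper left is the 0.2 kb island of IGH.

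Island by island, 24 of 30 in TRA/TRD and 15 of 16 in TRB had an authors' fold above the LY19WT list median of 2.28, as did 29 of 38 in IGK, 7 of 12 in IGL and 4 of 4 in IGH. In LY19Y646F, where the list median was 1.90, the counts were 3 of 8, 13 of 36, 7 of 18, 21 of 37 and 1 of 4, and 2 of 3 in TRG. By definition 50% of a list lies on each side of its median. Islands wider than 50 kb were found in TRA/TRD and TRB only, and only in LY19WT. In LY19WT 893 of 58144 islands were wider than 50 kb, and among its 100 member islands 5 in TRA/TRD and 3 in TRB were. In LY19Y646F 214 of 47432 islands were that wide, and none of its 106 member islands was. Such islands are so rare in the LY19Y646F list that nothing is read from their absence.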

How the data were processed

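Each line had 1 deposited island table. The authors used Bowtie2 2.2.9, SAMtools 1.3.1, SICER and bedtools with hg19, per the submitters' processing notes. Per the labels, the replicates of a line were merged and islands were listed at an FDR of 0.001. The deposited ChIP and input counts are raw reads in each island. The deposited fold is their ratio after division by a library ratio, which the values put at 3.07 for LY19WT and 2.62 for LY19Y646F. The deposited p-value and FDR are the authors'. Their p depends on depth, so a deeper or higher-copy region is listed more readily.

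Covered share is the island length inside a locus over the locus length, and densities and pooled folds use whole islands. Intervals (95%, exact Poisson for densities, Clopper-Pearson for folds) cover counting error only. Reads in islands came to 37556030 ChIP and 4949411 input in LY19WT and 17410034 and 3527109 in LY19Y646F; library totals were not used here. Autosomal median input was 8.41 and 8.42 reads per kb. Gene order came from RefSeq on GRCh38.p14, and no position was converted. No sequence is printed, since no hg19 genome was used here. Members and lists were chosen with earlier results of these data known. A locus with at most 5 islands in a line has all of them named. For other loci the 3 widest and the 1 with the highest fold and the 1 with the highest input density are named, with the nearest islands outside. The alternatives tried were stricter FDR limits, joined islands, shifted edges, lists of equal length, other overlap rules, scalings and window sizes. The steps, run in Python 3.11.15 with numpy 2.4.6, pandas 2.3.3 and scipy 1.17.1, were tested on simulated islands.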

Additional observations from a re-analysis of the deposited data

How the results depend on the processing

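No paired analysis was possible because the replicates of a line were merged before islands were called; for the same reason no replicate could be left out. The sign of the difference in coverage between the lines held at each of the 6 loci under every alternative run. In LY19Y646F minus LY19WT points, an FDR of at most 1e-10 gave 23.06 for IGL, -31.66 for TRB and 7.29 for TRG. With gaps of at most 5 kb closed, the values were -19.95 for IGK, 31.82 for IGL, -84 for TRA/TRD and -20.26 for TRB. Extending each locus by 50 kb gave 0.41 for IGH, -75.63 for TRA/TRD and 4.92 for TRG. Shortening it by 50 kb (20 kb for TRG) gave 2.10 for IGH, 30.46 for IGL, -83.71 for TRA/TRD, -19.58 for TRB and 18.0 for TRG. When LY19WT islands were dropped, weakest p-value first, until both lists covered equal length, the values were -12.97 for IGK, 30.63 for IGL and -73.34 for TRA/TRD. Leaving out the 2 empty stretches of TRB, chosen after seeing the data, gave -31.97. The other 18 of 37 such values moved by less than the exact binomial intervals of the covered shares, which treat neighbouring windows as independent and so are narrow. The cause of the shifts was not tested.

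Log2 levels of LY19Y646F over LY19WT turned positive with total ChIP reads in islands as the scale, at 0.29 for IGH, 0.54 for IGK, 0.73 for IGL and 0.18 for TRB, and were -0.092 for TRA/TRD. Scaled by autosomal median input density they were -0.82 for IGH, -0.38 for IGL, -1.20 for TRA/TRD and -0.93 for TRB. With windows of 100 kb, an island was present in 48.5% of immunoglobulin windows in LY19WT and 51.5% in LY19Y646F, against 35.4% and 38.5% with windows of 50 kb. All 44 ChIP and 44 input densities stayed within their counting intervals under the alternatives run. Many of these alternatives left the islands of a locus unchanged, so those densities could not move. The merged lists give no error between replicates, and reads outside islands were not analysed here, which limits what an empty locus can show.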
